A study of Homo sapiens with 7 samples.

Results

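In SK-N-BE(2) neuroblastoma cells, 12200 autosomal regions held a 5-hydroxymethylcytosine (5-hmC) peak at every time in hypoxia and none in normoxia. They were chosen by presence alone. Overlapping peaks (by 1 bp or more) of the 6 deposited peak lists were merged into regions on chromosomes 1 to 22, and a region was a member if it overlapped no peak at 0 h and at least 1 peak at 6, 12, 24, 48 and 72 h. The members make up 2.99% of the 407675 regions (95% Clopper-Pearson interval 2.94 to 3.05%). The cells were grown at 1% oxygen (hypoxia) for 6, 12, 24, 48 or 72 h, or at 21% oxygen (normoxia, labelled hour 0). SK-N-BE(2) is an established human neuroblastoma line with an amplified MYCN gene, labelled wild type, and all groups share this line and its medium. The assay chemically labels 5-hmC in sheared DNA, captures the labelled fragments and sequences them. There was 1 library per time, so no value has a replicate error, a difference between times is one between libraries, and hypoxia cannot be told apart from time in culture.

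5-hmC is made when TET enzymes oxidise 5-methylcytosine, a reaction that uses oxygen, iron and 2-oxoglutarate. It can be an intermediate on the way to unmethylated cytosine or a lasting mark, and it is known to be abundant in neural tissue, where it lies in the bodies of active genes and at enhancers. A peak here is a stretch in which captured fragments were called enriched. Its width reflects how far the enrichment was called to extend, not a level of 5-hmC at a base.

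Absence at 0 h and presence from 6 h on are what the rule asked for, so the number of members is a description. Of all regions, 37.1% were absent at 0 h, and 11.3, 11.3, 14.4, 19.8 and 24.2% were absent at 0 h while present at 6, 12, 24, 48 and 72 h, all against the same 0 h list. The opposite, present at 0 h and absent later, held for 8.70, 8.73, 7.31, 6.49 and 6.36% of regions at these times. Members held 12411, 12433, 12449, 12463 and 12393 peaks of the 6, 12, 24, 48 and 72 h lists. As a share of a list's autosomal peaks, this was 4.31, 4.29, 4.05, 3.76 and 3.58% in the same order. The sequence that their peaks covered came to 4.17, 4.08, 4.38, 4.82 and 5.11 Mb at 6, 12, 24, 48 and 72 h. That was between 2.68 and 2.73% of each list's covered length. Every member had to hold a peak in each hypoxia list, so the nearly constant number of member peaks was largely set by the rule. The lists gained peaks from 6 to 72 h, so the falling share of peaks largely follows from the rule as well. The share of covered length, which the rule does not fix, stayed steady.

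The same pattern, a region in 5 lists and missing from 1, occurred for every list. Beside the 12200 regions that lacked 0 h alone, 6967 lacked 6 h alone, 6793 lacked 12 h alone, 3927 lacked 24 h alone, 2611 lacked 48 h alone and 3985 lacked 72 h alone. These sets, each short of a single list, are the ones most like the members and serve for comparison throughout. The 0 h list was the shortest, with 280942 autosomal peaks, against 288234 at 6 h and 346595 at 72 h. With the same number of peaks in each list, the widest first, members numbered 7833 and regions lacking 72 h alone 8064. Those lacking 6, 12, 24 or 48 h alone then numbered 4836, 4800, 4000 and 4295. Under this setting the smallest width was 226 bp in the 0 h list and 298 bp in the 72 h list, so narrow peaks were left out unequally. Read depth is unknown, and the part of list length in the number of members was not tested.

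Peaks in members were narrow, and they widened as time in hypoxia went on. The median of the widest peak in a member was 311, 305, 328, 356 and 379 bp at 6, 12, 24, 48 and 72 h. The quartiles were 321 and 463 bp at 72 h, against 269 and 371 bp at 6 h. Regions held by all 6 lists were wider throughout, with medians of 495, 483, 505, 526 and 549 bp in the same order of times, and the upper quartile of the members stayed below the median of these regions at each of these times. Within its own list, the member median exceeded 25.3, 25.3, 30.4, 37.3 and 39.9% of all autosomal peaks at these times. This rise was not particular to the members. From 6 to 72 h the same share went from 24.2 to 38.0% in regions lacking 12 h alone and from 25.3 to 34.7% in those lacking 24 h alone. It went from 63.4 to 68.6% in regions of all 6 lists, but from 29.1 to 26.3% in those lacking 48 h alone.

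**Figure D1:**
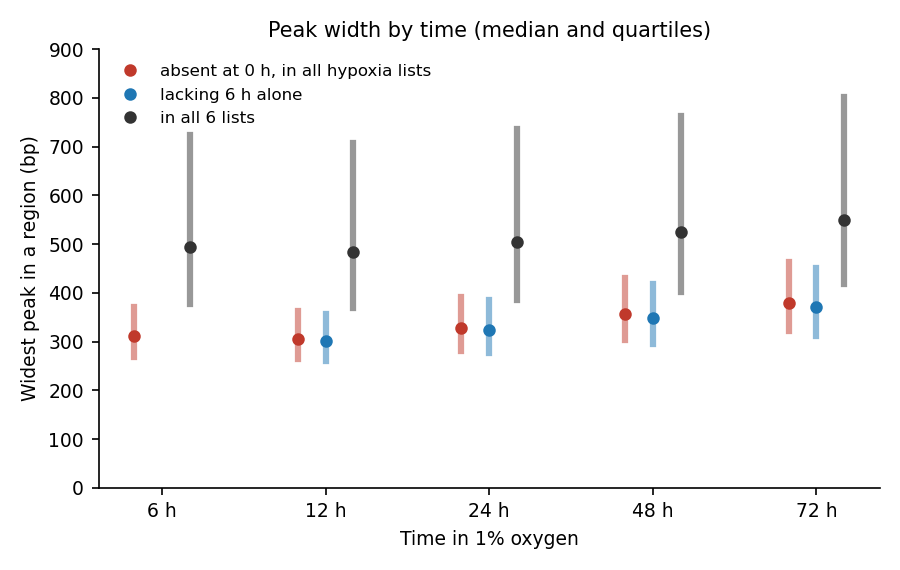
The vertical axis gives the width in bp of the widest peak in a region and the horizontal axis the time in 1% oxygen; points are medians and bars run between the quartiles. Medians of the members lie at 379 bp after 72 h, against 311 bp after 6 h, next to regions that lacked the 6 h list alone and below regions held by all 6 lists.

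Regions lacking 6 h alone had nearly the same widths as members. Their median was 301, 324, 348 and 372 bp at 12, 24, 48 and 72 h, between 4 and 8 bp below the members. Regions that appeared later and then stayed were narrower at the last time. The 72 h median was 379 bp in members, against 351 bp in the 5678 regions gained by 12 h and kept, 334 bp in the 7869 gained by 24 h, 309 bp in the 14578 gained by 48 h and 278 bp in the 28882 found at 72 h alone. The 72 h median was thus lower in each set gained later. These sets also differ in how many lists had to hold a region, and this cannot be told apart from the time of gain. Regions held at 0 h but lacking 12 h alone had a 72 h median of 371 bp, and those lacking 48 h alone 326 bp. All of these gained sets were defined by absence from the 0 h list, and no test of their difference is possible with 1 library a time.

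Many member peaks were close to the smallest width that a list held. The narrowest peak of the whole 72 h list measured 242 bp, against 235 bp for the 6 h list. Within 30 bp of their list's floor lay 22.7, 23.4, 16.1, 9.43 and 8.89% of members at 6, 12, 24, 48 and 72 h. Among all peaks of a list the share near the floor was 11.7% in the 72 h list, against 12.7% in the 6 h list, so members were nearer to the floor than other peaks early and less near late. At some hypoxia time, 6479 members (53.1%) had a peak this close to the floor. Over the lists that held them, the share was 60.0% of regions lacking 6 h alone and 12.9% of regions in all 6 lists.

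Followed region by region, 9110 of the 12200 members (74.7%, 95% interval 73.9 to 75.4%) were wider at 72 h than at 6 h, 3049 were narrower and 41 were equal. Of the 240357 regions with a peak at both times, 65.4% were wider at 72 h. The median member gained 62.5 bp from 6 to 72 h, a ratio of 1.20, and the median region in all 6 lists gained 38.0 bp, a ratio of 1.07. In the 6793 regions that lacked 12 h alone, which like the members were short of 1 list but were held at 0 h, 73.3% were wider at 72 h than at 6 h, with a median gain of 57.0 bp. In the 3927 regions that lacked 24 h alone the share was 67.9%, and in the 2611 that lacked 48 h alone it was 50.8%. The intervals cover counting error only, since regions of a pair of libraries are not replicates.

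The widening came after 12 h. From 6 to 12 h fewer members widened than narrowed, 46.0% against 53.5%. From 12 to 24 h 59.9% widened, from 24 to 48 h 63.3% and from 48 to 72 h 60.0%. In regions of all 6 lists the shares that widened were 45.1%, 57.6%, 56.5% and 57.5% for those steps. Both sets thus had more narrowing than widening in the first step and the reverse later, but the step from 24 to 48 h had the highest share among members and the lowest of the later shares in regions of all 6 lists. The 72 h list held the widest peak of 5120 members (42.0%), the 48 h list of 2975, the 24 h list of 1637, the 12 h list of 1064 and the 6 h list of 1296, with ties in 108. The 72 h share in regions of all 6 lists was 34.4%. Widening at every step was seen in 517 members (4.24%), against 2.80% of regions in all 6 lists, and narrowing at every step in 24 members (0.197%), against 0.617%.

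Large widening was more common, and large narrowing less common, among members than among all regions with a peak at 6 and 72 h. At 72 h, 2657 members (21.8%) were at least 1.5 times as wide as at 6 h, against 14.2% of all regions with a peak at both times. Narrowing of the same size was seen in 358 members (2.93%), against 4.25% of those regions. A 3-fold widening was reached by 102 members (0.836%), against 0.494%. Widths have a lower limit in each list, so widening and narrowing are not equally open to narrow peaks, and regions lacking 12 h alone stood at 20.9% wider and 2.91% narrower by the factor 1.5.

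In most members each hypoxia list held 1 peak, and these peaks largely overlapped. Regions were merged from overlapping peaks, so some overlap among the peaks of a member is given by the rule. In 11494 of them (94.2%) each hypoxia list held exactly 1 peak, against 81.6% of regions in all 6 lists. In 11318 of these 11494 (98.5%) some sequence was shared by all 5 hypoxia peaks. The share was 99.7% in regions of all 6 lists with 1 peak in each hypoxia list. The shared stretch had a median of 235 bp in members. At the median it took up 89.7% of the narrowest of the 5 peaks, against 96.3% in those regions of all 6 lists. The midpoints of the 5 peaks of a member lay within 73.5 bp of each other at the median, and those of regions in all 6 lists within 67.5 bp. In 176 members no base was common to all 5 peaks, so that the region was held together by a chain of overlaps. The whole merged span was 450 bp at the median, and it ranged from 264 to 1945 bp.

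Typical members can be shown by the 3 whose widths lay nearest to the median at every time. One on chromosome 13 (28181275 to 28181656, hg19) measured 310, 310, 330, 337 and 382 bp at 6, 12, 24, 48 and 72 h, and the nearest 0 h peak was 122 bp away. Another on chromosome 13 (89652702 to 89653092) measured 304, 308, 324, 351 and 376 bp at 6, 12, 24, 48 and 72 h, with the nearest 0 h peak at 5117 bp. The one on chromosome 4 (29069635 to 29070012) measured 306, 306, 329, 343 and 370 bp at these times, with a gap of 7051 bp. All coordinates are 1-based in hg19, the build named in the submitters' processing notes. Gene positions for hg19 were not used here, so regions are given by position without the gene they lie in.

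A small group of members was wide at every hypoxia time. In 82 members (0.672%) the widest peak measured at least 500 bp in every hypoxia list. The corresponding share was 0.287, 0.324, 0.204, 0.345 and 0.803% of regions lacking 6, 12, 24, 48 or 72 h alone, counted over the 5 lists that held them, and 32.0% of regions in all 6 lists. The 82 were spread over all 22 autosomes. Their median width was 621, 595, 639, 666 and 680 bp at 6, 12, 24, 48 and 72 h. From the first to the last of these times 61 of the 82 widened. They lay closer to normoxia peaks than the other members, with a median gap of 1173 bp against 1917 bp.

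In 4 members even the narrowest hypoxia peak measured 710 bp or more. The first, on chromosome 2 (80094376 to 80095811), was the only member above 1000 bp in all hypoxia lists, with 1392, 1115, 1091, 1224 and 1385 bp at 6, 12, 24, 48 and 72 h. The nearest 0 h peak, 248 bp wide, was 6302 bp away. It was thus about as wide at the first hypoxia time as at the last. The next, on chromosome 7 (1480783 to 1482187), measured 891, 905, 1349, 1032 and 895 bp at 6, 12, 24, 48 and 72 h, with a gap of 2029 bp to a 0 h peak. One on chromosome 1 (31011074 to 31011993) stayed between 763 bp at 24 h and 866 bp at 72 h, with a gap of 807 bp. The fourth, on chromosome 7 (152312579 to 152313798), measured 723, 1027, 710, 1139 and 1148 bp at these times and lay 217 bp from a 0 h peak of 448 bp.

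Other members started narrow and became broad. The largest widening was on chromosome 2 (13668964 to 13670827), where the widest peak measured 378, 254, 694, 1851 and 1800 bp at 6, 12, 24, 48 and 72 h. At 6, 12 and 24 h this region held 2 peaks each, and at 48 and 72 h 1 peak each. On chromosome 6 (43754589 to 43756106) the widths were 270, 394, 1252, 1473 and 1474 bp at 6, 12, 24, 48 and 72 h. The 2 peaks that the 6 and 12 h lists held there were 1 peak from 24 h on. On chromosome 7 (27496156 to 27497619) the increase came last, with 265, 340, 313, 606 and 1416 bp at 6, 12, 24, 48 and 72 h. This region held 2 peaks each at 6 and 48 h and 1 peak each at 12, 24 and 72 h. The nearest 0 h peaks of the 3 regions were 953, 1049 and 6306 bp away.

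The strongest narrowing had another course, with the fall between 6 and 12 h. On chromosome 17 (55560758 to 55561848) the widest peak was 1091 bp at 6 h and 273, 363, 344 and 319 bp at 12, 24, 48 and 72 h. A 0 h peak of 1491 bp lay 278 bp from it. On chromosome 12 (111880074 to 111881030) the widths were 957, 353, 480, 492 and 317 bp at 6, 12, 24, 48 and 72 h. On chromosome 1 (150134466 to 150135899) they were 1241, 515, 660, 664 and 696 bp at the same times. In these 3 regions the single 6 h peak was replaced at 12 h by 2 peaks. Both this group and the one that widened most were picked from the ends of the distribution of width changes.

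**Figure D2:**
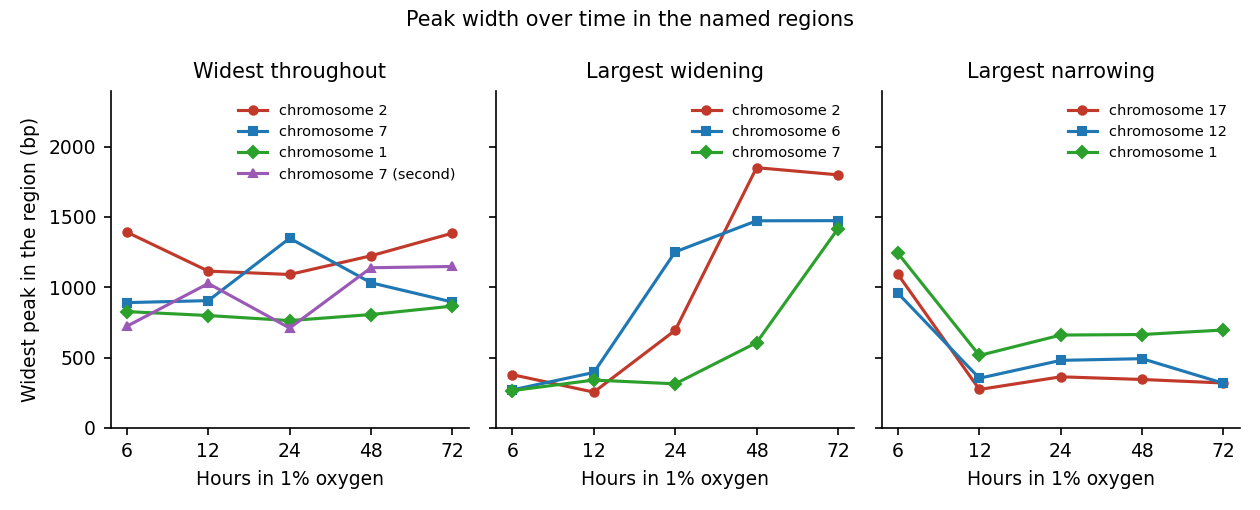
Each line follows the widest peak (bp, vertical axis) in 1 region over hours in 1% oxygen (horizontal axis, times evenly spaced). The 4 widest throughout stay at or above 710 bp, the 3 that widened most reach 1416 to 1800 bp at 72 h, and the 3 that narrowed most fall between 6 and 12 h.

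Most members lay within 5 kb of a peak called in normoxia. The nearest 0 h peak was 1911 bp away at the median, edge to edge, with quartiles of 686 and 5337 bp. Within 1 kb of a 0 h peak were 4067 members (33.3%, 95% interval 32.5 to 34.2%), within 500 bp 2295 (18.8%), within 5 kb 8960 (73.4%) and within 10 kb 10551 (86.5%). Only 49 members (0.402%) were more than 100 kb from any 0 h peak. The smallest gap was 1 bp.

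The distance was of the same order in the regions that another list lacked. Measured to the nearest peak of the list in question, the median gap was 1770, 1740, 1309, 1036 and 1097 bp for regions lacking 6, 12, 24, 48 or 72 h alone. The share within 1 kb was 35.6, 36.1, 42.6, 48.8 and 47.6% in the same order, each above the 33.3% of the members. The later lists also hold more peaks. Regions gained later were farther from normoxia peaks than the members, with a median gap of 2364 bp when gained by 12 h, 2798 bp by 24 h, 3008 bp by 48 h and 2623 bp at 72 h alone.

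**Figure D3:**
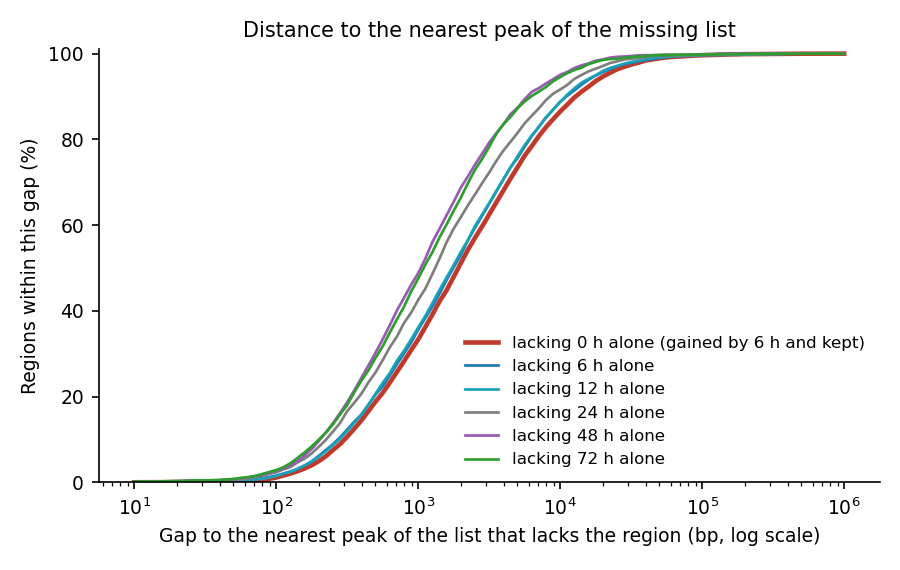
The horizontal axis (log scale) gives the gap in bp from a region to the nearest peak of the list that lacks it, and the vertical axis the percentage of regions within that gap. Members, which lack 0 h, reach 33.3% within 1 kb and run just right of the regions that lack 6 or 12 h alone.

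Pooled over all members, the 0 h peak nearest to a member was close to 0 h peaks in general. It had a median width of 372 bp, against 396 bp for all 0 h peaks, and in 9000 cases (73.8%) it belonged to a region found in all 6 lists, against 74.9% of all 256472 regions with a 0 h peak. In 346 cases (2.84%) it lay in a region that no hypoxia list held, against 2.90% of those regions. For members within 500 bp its median width was 402 bp, against 343 bp from 5 to 100 kb and 303 bp beyond. It belonged to a region of all 6 lists in 76.3, 68.8 and 53.1% of these cases. Members beside a 0 h peak were slightly wider at 6 h than remote ones, with medians of 323 bp within 500 bp, 318 bp from there to 1 kb, 310 bp from there to 5 kb, 303 bp from there to 100 kb and 292 bp beyond. At 72 h these classes had medians of 380, 384, 377, 380 and 352 bp, the last of them over 49 members. From 6 to 72 h, 71.0% of those within 500 bp widened and 78.6% of those between 5 and 100 kb.

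By a window of 50 bp, few regions sat at the border of the rule, but the number of members moved with the overlap required. Within 50 bp of a 0 h peak lay 35 members, with a median width of 399 bp in the 72 h list, against 319 bp in the 6 h list. Just outside were 9 regions in all 6 lists whose single 0 h peak met no hypoxia peak by more than 50 bp, with medians of 483 bp in the 72 h list, against 250 bp in the 6 h list. When presence required an overlap of at least 0.5 with the narrowest hypoxia peak, the members numbered 13772, against 12200 by the rule. With peaks closer than 300 bp merged they numbered 10630.

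The members occupied 11550 of the 280920 gaps between neighbouring 0 h peaks on a chromosome (4.11%). Their median length was 11480 bp, against 2302 bp for all such gaps. A long gap has more room for any region absent at 0 h. Gaps holding other such regions were not measured, so whether this difference is particular to the members was not tested. A single member was found in 10947 of them (94.8%), a pair in 564 and 3 or more in 39, up to 4. At the median they held 3 peaks of the 72 h list and 2 of the 6 h list, so a member was usually not the only hypoxia peak there late on.

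The most remote members lay in wide stretches without normoxia peaks. The farthest lay on chromosome 9 (9833311 to 9834005), 1338425 bp from the nearest 0 h peak, and measured 482, 247, 646, 538 and 411 bp at 6, 12, 24, 48 and 72 h. The stretch between the 0 h peaks on both sides was 4.05 Mb long, and it held 4, 7, 9, 16 and 18 peaks at 6, 12, 24, 48 and 72 h. Of its 28 regions this was the only one found at every hypoxia time. The next, on chromosome 6 (49510692 to 49511163), lay 1154522 bp from a 0 h peak and measured between 289 bp at 6 h and 430 bp at 72 h. Its stretch of 2.50 Mb held 2 members among 12 regions. The third, on chromosome 7 (117825552 to 117825964), lay 893731 bp from a 0 h peak in a stretch of 3.11 Mb with 1 peak each at 6 and 12 h, 3 at 24 h and 5 each at 48 and 72 h.

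Members were scattered through the genome and seldom formed runs. The nearest other member was 53066 bp away at the median. Within 10 kb of another member lay 1709 (14.0%, 95% interval 13.4 to 14.6%), and 8597 (70.5%) lay within 100 kb. In the order of regions along a chromosome, 346 pairs and 15 triplets of directly neighbouring members were found and no longer run, and 737 members (6.04%) stood in such runs. Of the regions directly beside a member, 3.08% were members themselves, close to the 2.99% of all regions that are members. A region beside a member was absent at 0 h in 40.3% of cases, against 37.1% of all regions, and it was held by all 6 lists in 44.6%, against 47.1%.

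The sets that lack another list were smaller, and their neighbours are read against their own share of regions. Among regions lacking 6 h alone, which make up 1.71% of regions, 2.17% of neighbours were of the same set, and 8.61% lay within 10 kb of another. For 12 h these values were 1.66% of neighbours, with 1.67% of regions in the set, and 7.83% within 10 kb. For 24, 48 and 72 h the shares of neighbours were 1.02, 1.07 and 1.28%, with 0.963, 0.640 and 0.977% of regions in the sets. As a smaller set has its regions farther apart, the shares within 10 kb cannot be set directly against the 14.0% of the members. The first 3 triplets in genome order lay on chromosome 2 (131132591 to 131146177, 13587 bp), chromosome 3 (142613282 to 142631638, 18357 bp) and chromosome 4 (102230831 to 102235710, 4880 bp). In the triplet on chromosome 4 the widths at 72 h were 460, 376 and 432 bp, against 289, 393 and 237 bp at 6 h.

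Of the 2700 bins of 1 Mb with any region, 2432 (90.1%) held a member. The median bin held 4 members, and 202 bins held 10 or more. The bin with the most was on chromosome 17 from 76 to 77 Mb, where 22 of 419 regions were members. It held 338, 348, 355, 371, 373 and 374 peaks from 0 to 72 h. In the same bin 2 regions lacked 6 h alone, 5 lacked 12 h alone, 1 lacked 24 h alone, 3 lacked 48 h alone and 4 lacked 72 h alone. The bin on chromosome 1 from 27 to 28 Mb came next, with 19 members among 283 regions, and the bin on chromosome 2 from 25 to 26 Mb had 18 among 300, tied with chromosome 17 from 74 to 75 Mb, which had 18 among 358. The bin on chromosome 2 held 217 peaks at 0 h and 245, 247, 249, 261 and 274 at 6, 12, 24, 48 and 72 h. The bins were ranked by the count itself, not by the share of regions that were members.

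Members were found on all autosomes at similar rates, with chromosomes 11 and 17 at the ends. Per 1000 regions there were 29.9 members over all autosomes. Chromosome 17 had 34.5 (549 members, 95% interval 31.7 to 37.5) and chromosome 11 had 22.5 (431 members, 20.5 to 24.8). Next to chromosome 11 came chromosome 14 with 25.1 (308 members, 22.4 to 28.1), and the other 19 chromosomes lay between 27.4 on chromosome 9 and 31.9 on chromosome 15. Counting error alone is covered by these intervals, and both chromosomes were picked from the ends of the order.

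Sets that lacked the next lists had another order. Regions lacking 6 h alone numbered 13.1 per 1000 on chromosome 17 and 20.6 on chromosome 11, against 17.1 on all autosomes. Those lacking 12 h alone numbered 12.8 and 18.0 on these chromosomes, against 16.7. Chromosome 17 thus had the most members and the fewest regions of either of these kinds per 1000 regions. On chromosome 11 members were fewer on the short arm, with 18.9 per 1000 regions (108 members, 15.5 to 22.7), than on the long arm, with 24.1 (323 members, 21.6 to 26.9), and these intervals overlap. On chromosome 17 both arms stood alike, at 34.8 on the short and 34.4 on the long arm. Chromosome 11 remained the lowest autosome in all 9 other settings tried, and chromosome 17 the highest in 7 of them. It was second with peaks of at least 500 bp and without the 6 h list.

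**Figure D4:**
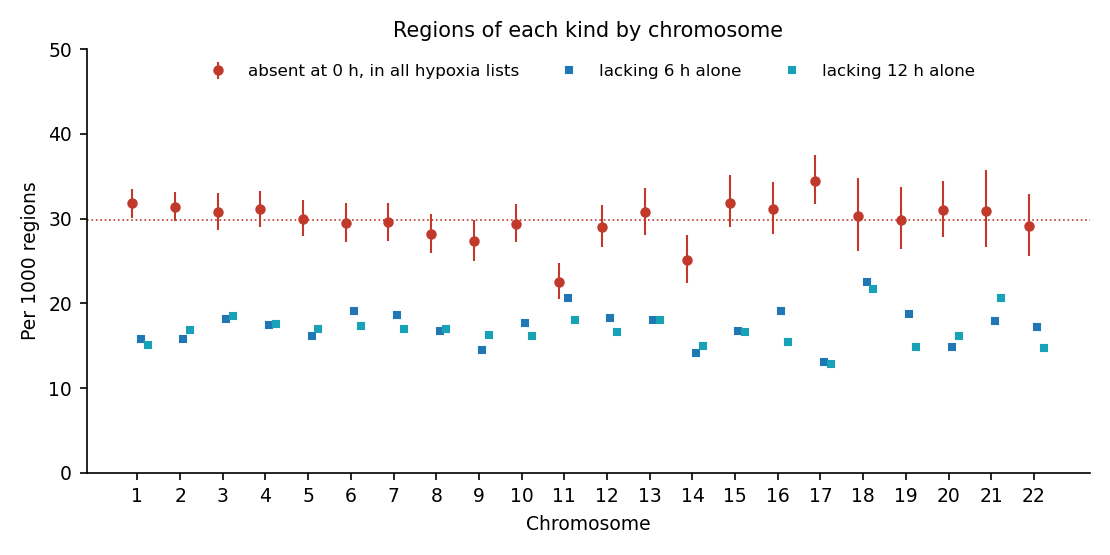
The vertical axis counts regions of each kind per 1000 regions on each autosome (horizontal axis); red points are members with 95% Clopper-Pearson intervals, and the dotted line is their rate over all autosomes, 29.9. Chromosome 11 lies lowest at 22.5 and chromosome 17 highest at 34.5, while the squares for regions lacking 6 or 12 h alone are lowest on chromosome 17.

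Members were somewhat more frequent where peaks were sparse. With 1 Mb bins ranked by their mean number of peaks over the 6 lists, there were 33.5 members per 1000 regions in the sparsest decile and 26.6 in the densest. The bins below the median of this ranking held 29.6% of the members and 26.3% of all regions, or 30.4% and 26.5% with bins ranked by 0 h peaks alone. The 0 h list also defined the members and is part of both rankings, so neither is independent of the rule. Regions lacking 6 h alone were also more frequent in the sparsest decile, with 20.8 per 1000 against 14.6 in the densest, and 30.2% of them lay in the sparser bins. Those lacking 12 h alone had 21.1 and 13.0 per 1000 in these deciles, with 30.3% in the sparser bins. The sets lacking a later list were lower in the sparsest decile than in the densest, with 5.74 and 9.29 per 1000 for 24 h, 5.44 and 6.90 for 48 h, and 8.46 and 9.41 for 72 h. For 24 and 72 h this rested on the sparsest decile, which has 3311 regions. In the next decile these 24 and 72 h sets stood at 9.78 and 10.0 per 1000, above the densest. Of the regions lacking 24, 48 or 72 h alone, 25.5, 20.8 and 24.8% lay in the sparser bins. At the ends of chromosomes, within 5 Mb of the first or last peak, lay 9.56% of the members and 10.7% of all regions.

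**Figure D5:**
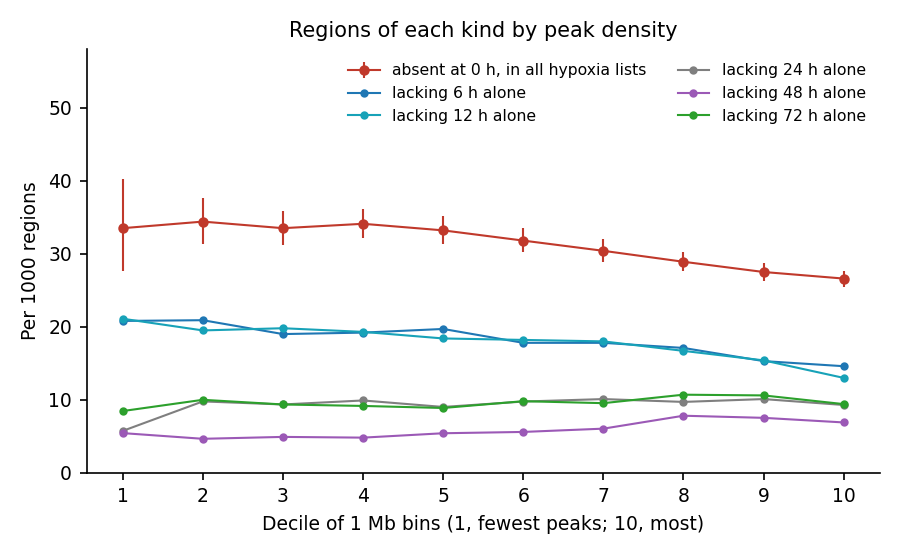
The horizontal axis orders 1 Mb bins into deciles by their mean number of peaks, and the vertical axis gives regions of each kind per 1000 regions; bars on the members are 95% Clopper-Pearson intervals. Members go from 33.5 in the sparsest to 26.6 in the densest decile, and regions lacking 6 or 12 h alone are also lower in the densest decile than in the sparsest.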

How the data were processed

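Genomic DNA of SK-N-BE(2) cells was sheared, its 5-hmC was labelled and captured, and 1 library was sequenced per time, per the labels' protocols. An input at 0 h was not analysed here. The authors deposited 1 list per time with 3 columns, chromosome, start and end (other unit: positions in bp), and no height, score, p or q. BWA 0.7.17, MACS2, HTSeq and hg19 come from the submitters' processing notes, which give them no role. A peak threshold and a use of the input were not given in the sources used here, so depth and its effect on list length and width are unknown.

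Peaks on chromosomes 1 to 22 were merged where they overlapped by 1 bp or more. Width is that of the widest peak of a list in a region. Gaps run from edge to edge. No test was run, since there is 1 library per time and the members were chosen from the same lists; 95% Clopper-Pearson intervals cover counting error only. Named regions were the 4 with the largest narrowest width, the 3 that widened and the 3 that narrowed most, the 3 farthest from 0 h peaks, the first 3 runs, 3 of the fullest bins (the third tied with another) and 3 near the median. The members, lists and rules were chosen with earlier results of these data known. Gene positions, gene lists, markers and sequences need hg19 and were not used here. On simulated lists of 22000 regions, 5 of 5 planted quantities were recovered. Python 3.11.15, NumPy 2.4.6, SciPy 1.17.1 and Matplotlib 3.10.9 were used.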

Additional observations from a re-analysis of the deposited data

Results flagged for a closer look

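The X chromosome and the unplaced and alternative contigs were outside the rule, and both held regions of the same kind, which the report does not use. On X, 212 of 6715 regions (3.16%, 95% Clopper-Pearson interval 2.75 to 3.60%) were absent at 0 h and present in all 5 hypoxia lists, with a median width of 374 bp in the 72 h list, against 308 bp in the 6 h list. Another 135 regions lacked 6 h alone. On the contigs there were 20 of 690 regions (2.90%, 1.78 to 4.44%), with medians of 354 bp in the 72 h list, against 296 bp in the 6 h list. Both shares are near the 2.99% of the autosomes.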

How the results depend on the processing

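No paired analysis was possible because each time has 1 library and no result comes from a test. Of 105 alternative values, 37 stayed within the 95% interval of the value in the report or within 1.5 times the count, and 68 moved, many by construction (another window, or narrow peaks left out). The causes of the moves were not tested.

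With peaks of at least 500 bp alone, members numbered 5463, their widths at 72 and 6 h had medians of 688 and 621 bp, 68.1% were wider at 72 h than at 6 h, the median gap was 3895 bp, 21.7% lay within 1 kb of a 0 h peak, 10.4% within 10 kb of another member and 22.0% in the sparser bins. With at least 300 bp, widths were 442 and 381 bp, 72.9% were wider, the gap was 2381 bp, 28.8% lay within 1 kb and 28.1% in the sparser bins. With the 280942 widest peaks of each list, members numbered 7833, widths were 410 and 326 bp, 82.1% were wider, 10.0% lay within 10 kb and 31.3% in the sparser bins; every hypoxia list loses its narrowest peaks here, so that 298 bp becomes the smallest width at 72 h. With peaks closer than 300 bp merged, 75.6% were wider, the gap was 2500 bp, 23.0% lay within 1 kb, 11.4% within 10 kb and 32.2% in the sparser bins. With an overlap of at least 0.5, widths were 398 and 326 bp, the gap was 1293 bp, 44.8% lay within 1 kb, 16.6% within 10 kb and 28.6% in the sparser bins. Members at least 1 kb from a 0 h peak, where the share within 1 kb has no value, had a width of 308 bp at 6 h, 76.3% wider, a gap of 3766 bp, 9.47% within 10 kb and 35.6% in the sparser bins. With X included 29.0% lay in the sparser bins, with 5 Mb bins 34.5%. Windows of 500 bp and 5 kb gave 18.8% and 73.4% near a 0 h peak, and windows of 50 and 100 kb gave 48.2% and 70.5% near another member. With each list's narrowest width subtracted 72.1% were wider, and with 1 peak in each list the 72 h width was 375 bp. The sparser bins here and below were ranked by 0 h peaks, the list that members lack. The share of all regions in these bins was not computed under the other settings. Whether members were more or less frequent there than other regions was thus not tested.

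With each hypoxia list left out, members numbered 13581 to 17961, the 72 h width was 370 to 373 bp and the 6 h width 302 to 310 bp, 73.5 to 75.5% were wider, the gap was 1804 to 2024 bp, 32.1 to 34.9% lay within 1 kb, 15.5 to 19.7% within 10 kb and 29.5 to 31.6% in the sparser bins. The ranking of bins by the mean over all lists and the settings for chromosomes 11 and 17 were chosen after seeing the data. The alternative for gene windows was not run.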
